A study of Homo sapiens with 6 samples.

Results

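Peaks of open chromatin were examined around the starts of 9 early response genes: EGR1, EGR2, EGR3, IER2, IER5, KLF6, KLF10, MYC and DUSP1. The genes and one start for each, in the hg19 build, were set by name, and a region belonged to the set when it lay within 3 kb of a start on either side. Joined over 6 libraries, the peaks formed 14 such regions, out of 32037 regions in the whole data set. The assay was ATAC-seq, which reads open chromatin from the places where a transposase can insert adapters, and the cells were CCRF-CEM, an established T lymphoblast leukaemia line of human origin. Wild-type parent cells were compared with knockout cells that lack SLFN11, a protein recruited to stressed replication forks. Each genotype was given DMSO, the solvent, or 100 nM camptothecin, which traps topoisomerase I on DNA and stalls replication, for 2 h or 4 h. All 6 groups share the line and its growth conditions, and the knockout libraries carry 1 code prefix, so a clone and the genotype cannot be told apart. With 1 library per group, no test between groups was possible and no p-value is given.

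The peak lists carry library codes: WT, WT2 and WT4 for the parent and KO, KO_2 and KO_4 for the knockout. The sample titles give these codes to DMSO, 2 h and 4 h, and this reading defines the treatments here. The samples under which the lists are recorded give another order. There, WT2 and KO_2 are DMSO, WT4 and KO_4 are 2 h, and WT and KO are 4 h. Code and recorded sample matched for 0 of 3 parent and 0 of 3 knockout lists. Libraries are therefore named by their codes, values of a library hold under both readings, and the treatment reading is given where a direction is drawn.

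Early response genes are transcribed within minutes of a stimulus without new protein synthesis. Many of their promoters carry sites for serum response factor (the CArG box) and for factors of the cyclic AMP response, which kinase signalling activates. EGR, KLF and MYC proteins are transcription factors, while DUSP1 is a phosphatase that switches MAP kinases off again. In T cells these genes are known for their response to receptor stimulation and to stress.

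RefSeq's promoter table (GRCh38.p14) held 6 of the 9 genes, and 5 of them with 1 start. Shown here are the 250 bases before that start for EGR1, DUSP1, KLF6 and IER5, the 4 genes of the table whose region called in all libraries reached farther past the start in both WT2 and WT4 than in WT. Capitals mark matches on either strand to the CArG box, the cyclic AMP response element TGACGTCA, the GC box GGGCGG or the E box CACGTG. The windows lie at chr5:138465229-138465478 (+), chr5:172771196-172771445 (-), chr10:3785210-3785459 (-) and chr1:181088450-181088699 (+) in that build, and were not placed in hg19.
EGR1: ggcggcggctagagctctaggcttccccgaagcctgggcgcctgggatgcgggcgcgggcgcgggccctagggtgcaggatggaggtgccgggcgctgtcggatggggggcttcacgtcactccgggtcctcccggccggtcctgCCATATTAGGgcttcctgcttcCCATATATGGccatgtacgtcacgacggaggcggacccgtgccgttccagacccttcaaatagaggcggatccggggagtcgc
DUSP1: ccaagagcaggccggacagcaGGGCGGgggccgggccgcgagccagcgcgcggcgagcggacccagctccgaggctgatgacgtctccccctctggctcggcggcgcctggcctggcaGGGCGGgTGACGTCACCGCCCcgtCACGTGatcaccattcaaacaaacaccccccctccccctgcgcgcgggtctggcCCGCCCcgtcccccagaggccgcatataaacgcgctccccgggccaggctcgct
KLF6: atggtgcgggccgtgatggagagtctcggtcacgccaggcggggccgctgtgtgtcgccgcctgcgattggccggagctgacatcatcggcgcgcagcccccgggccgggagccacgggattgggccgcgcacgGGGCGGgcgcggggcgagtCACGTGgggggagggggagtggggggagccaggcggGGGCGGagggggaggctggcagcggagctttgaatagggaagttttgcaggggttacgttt
IER5: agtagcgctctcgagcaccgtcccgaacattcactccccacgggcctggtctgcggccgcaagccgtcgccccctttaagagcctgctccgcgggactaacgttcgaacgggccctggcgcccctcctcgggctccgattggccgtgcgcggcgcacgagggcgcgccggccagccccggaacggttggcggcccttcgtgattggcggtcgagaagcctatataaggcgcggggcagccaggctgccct
EGR1 held 2 CArG boxes, beginning 105 and 83 bases before the start. Of all 35116 promoter windows of this length, 1.16% held one. DUSP1 held 1 cyclic AMP response element, found in 1.65% of windows, 125 bases before the start, with a GC box abutting it at 117 and another at 132. DUSP1 had 4 GC boxes and KLF6 had 2 (42.6% of windows held one), and each had 1 E box (6.34% of windows). None of these motifs, nor the EGR site GCGTGGGCG (0.72%) or the AP-1 site TGANTCA (6.57%), was matched in the IER5 window. EGR2 has 3 starts in the table, of which 1 held a CArG box, 71 bases before it. Which of them is the stated hg19 start was not determined. The IER2 window held 3 GC boxes and overlaps the neighbouring gene STX10, and the IER5 window overlaps LOC124904465. These matches are descriptions of sequence and say nothing about binding.

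All 9 genes had at least 1 peak within 3 kb in every library. For each gene exactly 1 region was called in all 6 libraries, as were 34.6% of the 32037 regions. Within 500 bp of the start, 7 genes had a peak in WT, all 9 in WT2 and WT4, and 7, 8 and 7 in KO, KO_2 and KO_4. The genes lacking one were EGR3 and IER2 in WT, KO and KO_4, and IER2 alone in KO_2. The start itself lay inside a peak for 4 genes in WT, 7 in WT2, 6 in WT4, 5 in KO, 4 in KO_2 and 6 in KO_4. The map of peaks by library shows these positions.

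**Figure D1:**
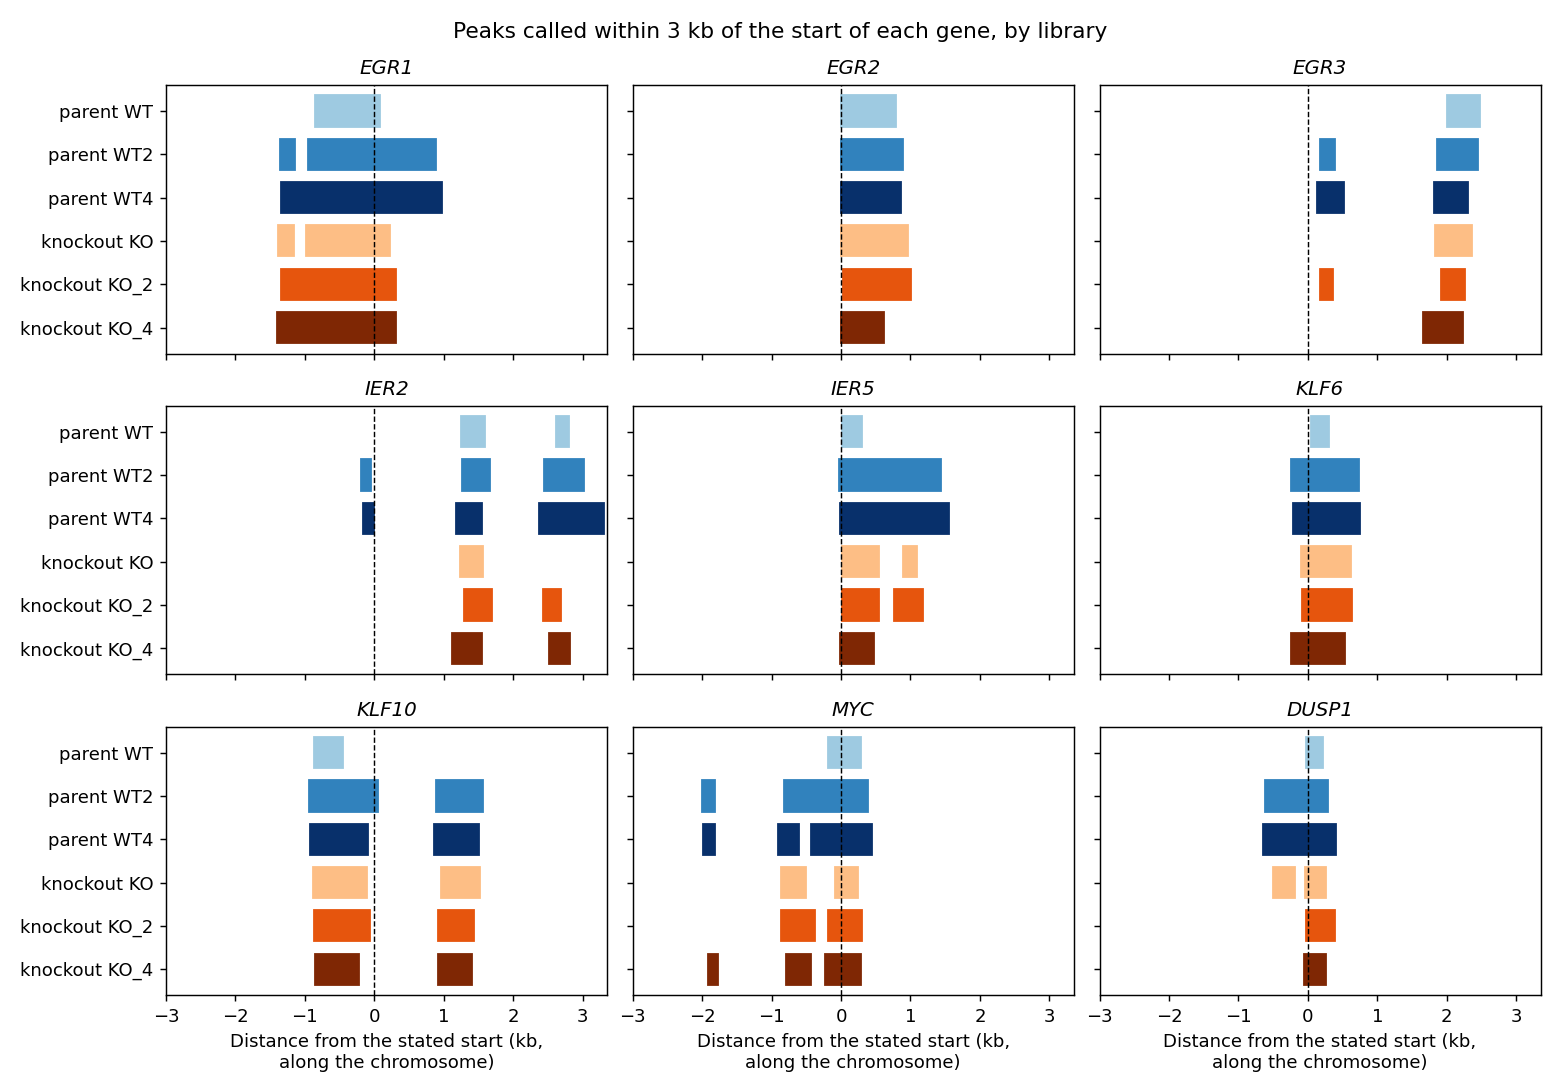
Peaks called within 3 kb of the stated start of each gene, as distance along the chromosome in kb (horizontal), with 1 row per library and the start as a dashed line. Bars are peaks, drawn to scale. Peaks at EGR1, IER5 and DUSP1 reach farthest into the gene in WT2 and WT4, and the peak just before the IER2 start appears in those libraries only.

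Libraries differed in depth and length of list, and this touches every comparison that follows. Lists held 14205 merged peaks in WT, 23665 in WT2 and 21617 in WT4, against 19289, 20894 and 19167 in KO, KO_2 and KO_4. Reads at a summit (the pileup), recovered from the deposited fold and p, had a median of 20.0 in WT, 49.0 in WT2 and 59.0 in WT4 over the 11070 regions called in all libraries. In KO, KO_2 and KO_4 these medians were 26.0, 30.0 and 24.0. Over the same regions the median width was 414 bp in WT, 682 in WT2 and 689 in WT4, beside 517 in KO, 551 in KO_2 and 492 in KO_4. WT thus had the lowest median pileup and width of the 6, and the part this plays in the differences at the 9 genes was not tested. In such bulk libraries a larger share of cells with a site open and a site more open in each cell cannot be told apart.

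Counted in bases, the 9 genes were covered by more peak sequence in WT2 and WT4 than in the other libraries. Bases in peaks within 3 kb summed to 4400 in WT, 11273 in WT2 and 11667 in WT4, and to 7375, 8213 and 7381 in KO, KO_2 and KO_4. As a percentage of all peak bases of the library, these sums were 0.0773, 0.0935, 0.101, 0.0899, 0.0903 and 0.0947, in the same order. WT was lowest and WT4 highest on both scales, but as a percentage WT2 (0.0935) lay below KO_4 (0.0947). The spread was smaller as a share of the list than in bases.

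**Figure D2:**
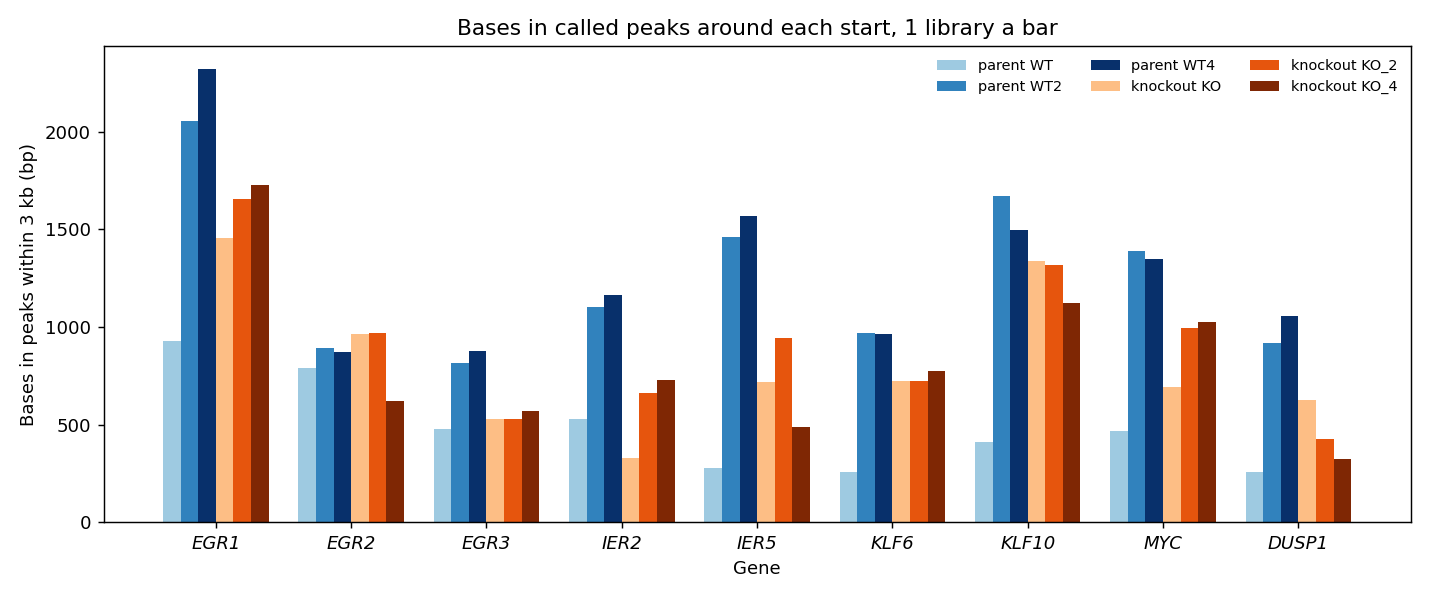
Bases in called peaks within 3 kb of the stated start (vertical, bp) for each gene (horizontal), with 1 bar per library. The WT bar is the lowest for EGR1, EGR3, IER5, KLF6, KLF10, MYC and DUSP1, and both WT2 and WT4 exceed all other libraries for 8 genes, EGR2 being the exception.

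Among the EGR genes, which encode zinc finger transcription factors, EGR1 had the widest region (chromosome 5, 137799777 to 137802153, hg19). Its peaks covered 928 bp in WT, 2056 in WT2, 2322 in WT4, 1455 in KO, 1654 in KO_2 and 1724 in KO_4. The parent libraries were at both extremes, with the knockout libraries between them. On the side of the gene body, the peak of WT ended 78 bp after the start. In WT2 and WT4 it ended 888 and 972 bp after it, and in KO, KO_2 and KO_4 at 233, 317 and 319 bp. The region held 3 summits in WT, 5 in WT2 and 8 in WT4, and 4, 6 and 6 in KO, KO_2 and KO_4. The tallest summit lay upstream in every library, from position -389 in KO_2 to -140 in KO_4.

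EGR2 behaved differently. EGR2 is read from the minus strand, and its region (chromosome 10, 64576122 to 64577127) lay almost wholly upstream of the stated start. On the gene side it ended within 4 bp of that start in WT, WT2, WT4, KO and KO_4 and 35 bp before it in KO_2. RefSeq has 3 EGR2 starts and the stated one was not matched to them, so upstream refers to the stated start alone. The region covered 791, 891 and 872 bp in WT, WT2 and WT4 and 965, 967 and 619 bp in KO, KO_2 and KO_4. The parent libraries differed little in width here, and KO_4 was the narrowest. Of the 9 genes, EGR2 had the highest fold enrichment over local background (the peak caller's value) in each library that was not WT, and shared the highest value with IER5 in WT. The EGR2 folds were 7.13 in WT, 9.15 in WT2, 10.95 in WT4, 8.32 in KO, 10.2 in KO_2 and 8.55 in KO_4.

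EGR3 had a region at higher coordinates than its start, at position 1665 to 2485 relative to it (chromosome 8, 22552480 to 22553300), in all libraries. Its width was 479, 599 and 488 bp in WT, WT2 and WT4 and 529, 348 and 571 bp in KO, KO_2 and KO_4. The groups overlapped, and neither genotype was wider throughout. A second EGR3 region nearer the start, at 128 to 517, was called in WT2 (218 bp), WT4 (390 bp) and KO_2 (181 bp), and in no other library. Its summit pileups were 36, 47 and 22 reads.

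IER5, a nuclear protein of the stress response, had the largest gain in width of the 9. Its region (chromosome 1, 181057613 to 181059195) covered 277 bp in WT, 1460 in WT2 and 1568 in WT4. In KO, KO_2 and KO_4 it covered 716, 942 and 490 bp. Peaks ended 297 bp into the gene in WT, 1434 in WT2, 1557 in WT4, and 1088, 1179 and 474 bp in KO, KO_2 and KO_4. In KO and KO_2 this reach was made by 2 separate peaks, whereas in WT2 and WT4 it was 1 unbroken peak. The edge before the start stayed within 25 bp of it in all libraries, so the difference in width lay on the gene side. In RefSeq, LOC124904465 overlaps the 250 bases before the IER5 start. Whether it also lies over this region was not determined.

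IER2, a member of the same gene group by name, had 3 regions. The one just before the start, at -185 to -7 (chromosome 19, 13261097 to 13261275), was called in WT2 (132 bp) and WT4 (154 bp) alone, as were 4.53% of all regions. It was weak, with fold enrichments of 2.77 and 2.50 and summit pileups of 43 reads (95% Poisson interval 31.1 to 57.9) and 57 reads (43.2 to 73.9). The region at 1113 to 1695 was called in all libraries, with 342, 410 and 375 bp in WT, WT2 and WT4 and 330, 409 and 432 bp in KO, KO_2 and KO_4, so its width hardly separated them. The region at 2367 to 3304 was missing in KO and measured 188 bp in WT, 579 in WT2, 938 in WT4, 253 in KO_2 and 298 in KO_4. STX10 lies over the bases before the IER2 start in RefSeq, so the first region cannot be assigned to 1 of these genes.

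KLF6 and KLF10 encode zinc finger transcription factors of the Krüppel-like family, the latter an early target of TGF-beta. The KLF6 region (chromosome 10, 3827236 to 3828219) covered 259 bp in WT, 971 in WT2, 962 in WT4, 724 in KO, 721 in KO_2 and 775 in KO_4. It differed on both sides, reaching 298 bp upstream in WT and 733 and 746 bp in WT2 and WT4. On the gene side, the WT peak stopped 40 bp short of the start, while those of WT2 and WT4 passed it by 237 and 215 bp. The knockout libraries passed it by 97, 84 and 237 bp, so KO_4 reached as far as WT2 there.

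The stated KLF10 start is a rounded position, and distances for this gene are approximate. Its region at -941 to 50 (chromosome 8, 103666059 to 103667050) covered 412, 992 and 843 bp in WT, WT2 and WT4 and 775, 801 and 628 bp in KO, KO_2 and KO_4. A second region, at 856 to 1567, was called in every library but WT, a pattern shared by 6.28% of all regions. It measured 680 bp in WT2, 652 in WT4, 560 in KO, 518 in KO_2 and 495 in KO_4. WT held neither the second region nor the inner part of the first.

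MYC, the growth-promoting basic helix-loop-helix factor, had its main region at -902 to 448 (chromosome 8, 128747413 to 128748763). It covered 469 bp in WT, 1207 in WT2, 1186 in WT4, 693 in KO, 994 in KO_2 and 883 in KO_4. In WT a single peak spanned -181 to 287. All other libraries added sequence at lower coordinates, ending between -789 and -902, in 2 peaks in WT4, KO, KO_2 and KO_4 and in 1 peak in WT2. A further weak region at -2001 to -1779 was called in WT2, WT4 and KO_4, with pileups of 38, 45 and 15 reads.

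DUSP1, the MAP kinase phosphatase, is read from the minus strand. Its region (chromosome 5, 172197552 to 172198609) covered 255 bp in WT, 916 in WT2 and 1058 in WT4, and 628, 425 and 324 bp in KO, KO_2 and KO_4. The knockout widths lay within the range of the parent widths. Under the title codes the parent value is lowest with DMSO and the knockout value is highest with DMSO. The parent peaks reached 31 bp into the gene in WT and 620 and 651 bp in WT2 and WT4. In KO a separate peak reached 509 bp, whereas KO_2 and KO_4 ended at 27 and 57 bp. With only peaks of a -log10 q of at least 5, and likewise with lists of equal length, the KO_4 against KO ratio turned from -0.95 to 0.06 on the log2 scale. On the upstream side, the edge lay at 223, 295 and 406 bp in WT, WT2 and WT4 and at 266, 397 and 266 bp in KO, KO_2 and KO_4. Measured from the stated start, all 6 peaks thus covered the distance of 125 bases at which the element capitalised in the DUSP1 sequence precedes the RefSeq start, but the starts of the 2 builds were not matched.

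Widths of the 9 shared regions were then set against each other between libraries, as log2 ratios, beside the same ratio over all 11070 regions called in every library. A ratio past 1.5-fold is called. For WT2 against WT, all 9 ratios were above 0, where 92.4% of all regions were, and 6 were called wider, where 53.5% of all regions were. The median was 1.27, against 0.63 over all regions, with a range from 0.17 (EGR2) to 2.40 (IER5). For WT4 against WT, again all 9 were above 0 (90.1% of all regions) and 6 were called wider (52.9%), with a median of 1.32 against 0.62. In both comparisons these were EGR1, IER5, KLF6, KLF10, MYC and DUSP1. The share of called members is near the background, while IER5, KLF6 and DUSP1 lay far up the distribution, at the 99.2, 96.3 and 95.6 percentiles for WT2 and the 99.4, 95.8 and 97.4 percentiles for WT4. By the title codes, parent peaks were wider at 2 h and 4 h of camptothecin than with DMSO. By the recorded samples they were narrower at 4 h than with DMSO, and at 2 h the median against DMSO was -0.03.

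Within the knockout, widths differed in both directions. For KO_2 against KO, 0 of 9 were called wider (12% of all regions) and 1 was called narrower (6.03%), EGR3 at -0.60. The median of the 9 was 0.05, against 0.07 over all regions. For KO_4 against KO, 0 were called wider (7.43%) and 2 narrower (13.1%), DUSP1 at -0.95 and EGR2 at -0.64, with a median of 0.10 against -0.04. The difference between the parent and knockout log2 ratios had a median over the 9 genes of 0.96 for the libraries coded 2 and 1.08 for those coded 4. Over all regions the same medians were 0.54 and 0.68, and the difference was not tested.

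The genotypes were also compared at matched codes, which pair the same treatment under both readings. For KO against WT, 5 of 9 regions were called wider (26.4% of all regions): IER5, KLF6, DUSP1, KLF10 and EGR1, with a median of 0.65 against 0.24. For KO_2 against WT2, 3 were called narrower (22.2%), which were DUSP1 at -1.11, EGR3 at -0.78 and IER5 at -0.63, with a median of -0.31 against -0.26. For KO_4 against WT4, 2 were called narrower (36.2%), DUSP1 at -1.71 and IER5 at -1.68, with a median of -0.43 against -0.41. The medians of the 9 genes were thus close to those of all regions in these last comparisons, and DUSP1 and IER5 lay at the low end, at the 2.57 and 2.83 percentiles for KO_4 against WT4.

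Across the 6 libraries, WT was the narrowest for 6 of the 9 genes (50.4% of all regions), and WT2 and WT4 were both wider than the other 4 libraries for 6 genes (52.7%). The same genes made up both counts: EGR1, IER5, KLF6, KLF10, MYC and DUSP1. IER5, KLF10 and EGR2 shared the knockout order KO_4, KO, KO_2 from narrow to wide. EGR1 and IER2 shared the order KO, KO_2, KO_4, and EGR3 and KLF6 the order KO_2, KO, KO_4. Some orders rest on few bases, with KO_2 and KO at 721 and 724 bp for KLF6 and at 967 and 965 bp for EGR2. With 9 genes some must share a knockout order, and the share over all regions was not taken. No pair of the 9 genes had the same order over all 6 libraries.

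**Figure D3:**
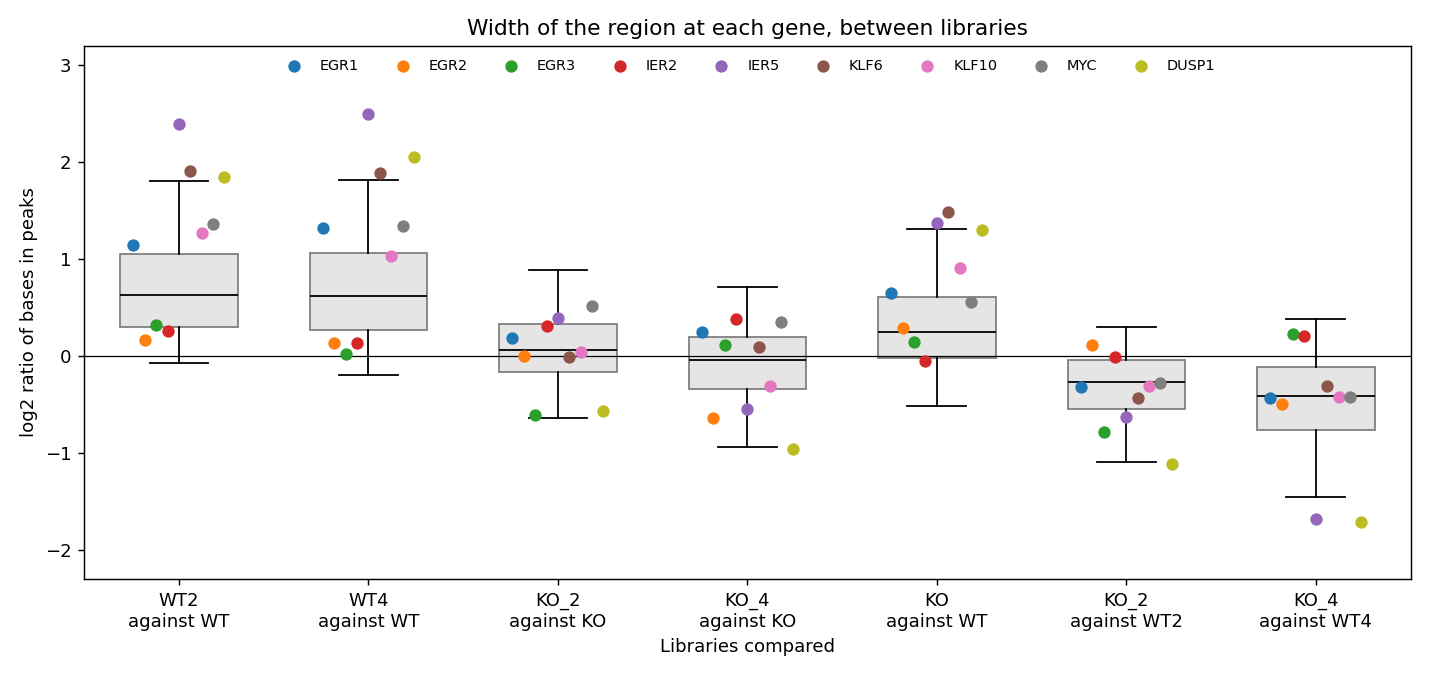
Log2 ratio of bases in peaks (vertical) between the 2 libraries named on the horizontal axis, with 1 point per gene for its region called in all libraries. Grey boxes show the quartiles of all 11070 such regions, with the median as a line and whiskers at the 5 and 95 percentiles. The points for WT2 and WT4 against WT run from 0.03 to 2.50, and those for KO_2 and KO_4 against KO from -0.95 to 0.52.

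Fold enrichment told a different story from peak width. At the region called in all libraries, the deposited fold was higher in WT2 and WT4 than in WT for every gene but IER2. For IER2 this region lay at 1113 to 1695, away from the start, with folds of 4.92, 3.59 and 3.04 in WT, WT2 and WT4. The IER2 region at 2367 to 3304 had 3.56, 3.54 and 4.08. The median deposited fold over the 9 genes was 4.98 in WT, 5.83 in WT2 and 6.22 in WT4. Fold enrichments were divided by their median over the shared regions of the same list to give a relative fold. These shared medians were 6.05, 8.92 and 9.47 in WT, WT2 and WT4, and 6.92, 7.25 and 6.77 in KO, KO_2 and KO_4. In the parent they rose by a larger factor than the medians of the 9 genes. On the relative scale 7 of the 9 genes were lower in WT2 than in WT, EGR3 at 0.12 and DUSP1 at 0.04 being the others. All 9 were lower in WT4 than in WT. Over all regions, 42.5% had a ratio above 0 for WT2 against WT and 42.7% for WT4 against WT. For WT2 against WT the median log2 ratio was -0.43, against -0.07 over all regions, and 1 gene was called lower (9.5% of all regions), IER2 at -1.02. For WT4 against WT it was -0.32 against -0.08, with 2 called lower (14.4%), IER2 at -1.34 and IER5 at -0.61. Within its list, the MYC fold enrichment stood at the 6.69, 2.38 and 6.69 percentiles of shared regions in WT, WT2 and WT4. That of EGR2 stood at the 70.9, 54.0 and 70.1 percentiles.

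The fold is the summit pileup plus 1 over the local background plus 1, and both parts were larger at these genes in WT2 and WT4. Background around the 9 regions had a median of 3.56 reads in WT, 9.93 in WT2 and 11.7 in WT4. Over all shared regions it was 2.37, 4.39 and 4.88. Around EGR1 it was 6.24, 20.9 and 30.2 reads in WT, WT2 and WT4 and 7.97, 9.56 and 7.46 in KO, KO_2 and KO_4. Its summit pileup was 35 reads in WT, 117 in WT2, 162 in WT4, 54 in KO, 76 in KO_2 and 40 in KO_4. Between WT and WT4, the local background and the pileup at EGR1 thus differed by similar factors. The WT pileup of 35 reads has a Poisson interval from 24.4 to 48.7, so these factors cannot be ranked. The deposited EGR1 fold was 4.98 in WT and 5.22 in WT4.

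When pileup took the place of fold, scaled in the same way, the direction turned. The median log2 ratio of the 9 genes was then 0.17 for WT2 against WT and 0.30 for WT4 against WT, beside -0.04 and -0.05 over all regions. In each, 8 of 9 genes were above 0 (45.9% and 47% of all regions) and 1 was called higher (6.4% and 10.3%), DUSP1 at 0.69 for WT2 and EGR1 at 0.65 for WT4. The gene below 0 was IER2, at -0.08 and -0.06. The 95% counting interval of EGR1 in WT4 against WT ran from 0.12 to 1.22. For the other 8 genes in that comparison, and for all 9 in WT2 against WT, the interval included 0, so a difference in summit height was not detectable at this depth. These intervals cover counting error only and are not adjusted for the number of genes and comparisons.

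Between genotypes, the relative fold ratio was above 0 for 4 of 9 genes in KO against WT (47.3% of all regions). It was above 0 for 8 in KO_2 against WT2 (56.1%), with a median of 0.46 against 0.05. For KO_4 against WT4 all 9 were above 0 (57.1%), with a median of 0.24 against 0.07. Past 1.5-fold, 1 gene was called higher in KO against WT (3.75% of all regions), EGR3 at 0.59, a ratio of 1.51. That call was lost with lists of equal length, with a -log10 q of at least 5 and within 1 kb. In KO_2 against WT2, 3 were called higher (4.58%), EGR1 at 0.74, IER2 at 0.61 and KLF6 at 0.59. In KO_4 against WT4, 1 was called higher (11.5%), IER2 at 0.95. The higher calls for KO_2 and KO_4 were lost with pileup in place of fold. For KO_2 against WT2, 0 of 9 genes were then called higher (14% of all regions), with EGR1 at 0.085, IER2 at -0.11 and KLF6 at 0.12. Called lower was 1 gene (5.38%), IER5 at -0.997 with an interval from -1.68 to -0.36. For KO_4 against WT4, 0 were called higher (26.8%), with IER2 at -0.36. Called lower were 2 (8.41%), EGR1 at -0.72 (-1.26 to -0.21) and IER5 at -0.70 (-1.43 to -0.03). The EGR3 call in KO against WT was kept with pileup (5.99% of all regions), at 0.76 with an interval from -0.16 to 1.75. Called lower there was 1 gene (7.99%), IER5 at -0.66 with an interval from -1.52 to 0.19. By width, the same comparison called IER5 wider. The plot of relative fold by comparison shows the 9 genes beside all regions.

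**Figure D4:**
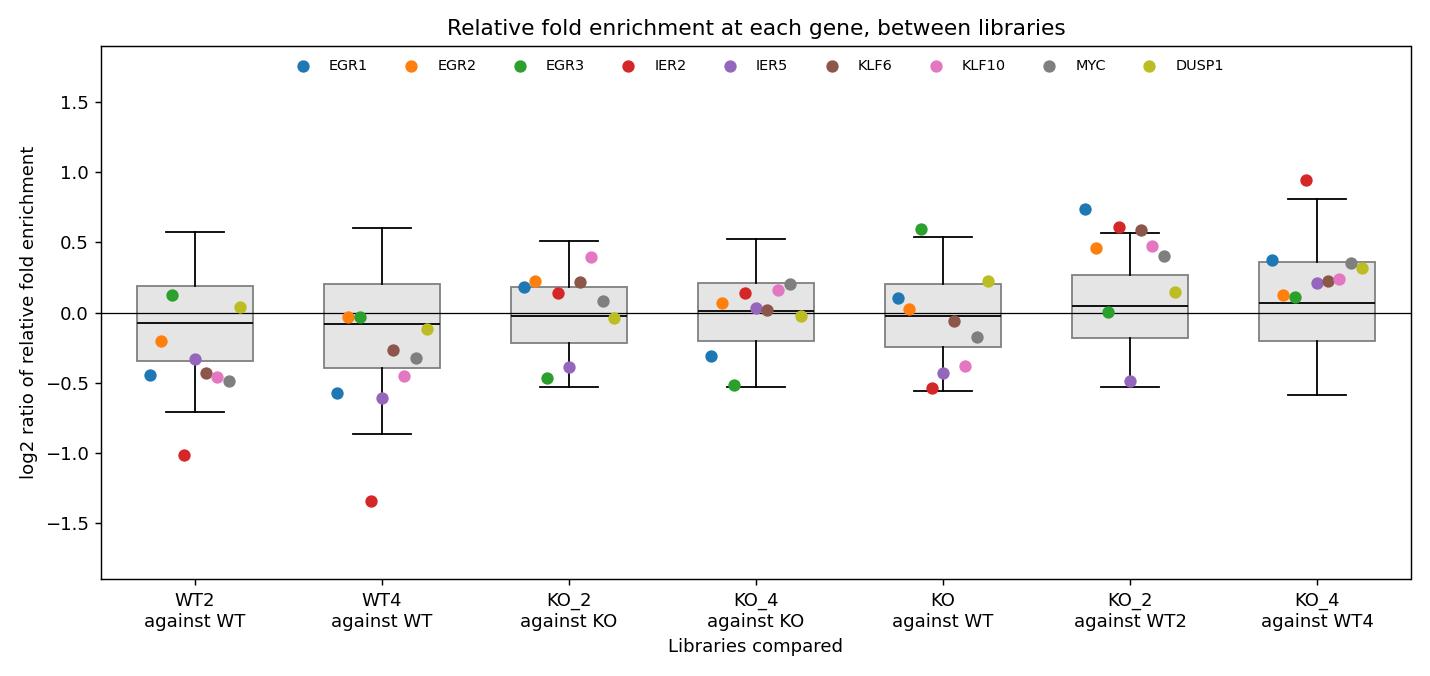
Log2 ratio of relative fold enrichment (vertical) between the 2 libraries named on the horizontal axis, with 1 point per gene. Relative fold is the deposited fold divided by its median over the shared regions of the same list, and boxes and whiskers are drawn as for width. IER2, measured at its region 1113 to 1695 from the start, is the lowest point in WT2 and WT4 against WT, at -1.02 and -1.34.

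Presence of peaks was compared last. WT2 and WT4 each held 4 of the 14 regions that WT lacked: that before the IER2 start, that near the EGR3 start, the second KLF10 region and the distant MYC region. WT held none that they lacked. Over all regions, 43% of those in either list were added in WT2 and 39.4% in WT4. In the knockout, KO_2 added 2 regions to those of KO (19.5% of all), EGR3 near the start and IER2 at 2367 to 3304. KO_4 also added 2 (16.3%), the same IER2 region and the distant MYC region. Against the parent at matched codes, KO added KLF10 (31.7%) and lacked IER2 at 2367 to 3304 (7.21%). KO_2 lacked 2 regions of WT2 (22.8%), IER2 before the start and the distant MYC region, and KO_4 lacked 2 of WT4 (25.3%), IER2 before the start and EGR3 near the start. By the recorded samples, the 4 regions absent from WT are absent at 4 h rather than with DMSO.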

How the data were processed

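ATAC-seq peak lists of 6 libraries, 1 per group, were used. Per the submitters' processing notes, the tools were MACS2 2.1.2, BWA 0.7.17, Trimmomatic 0.39, Trim Galore 0.6.2, Picard 2.9.2 and SAMtools 1.8 and the build was hg19, with no role stated for each. No source used here gives the read shift, the extension or the treatment of duplicates, which can move peak edges. The fold enrichment (a ratio over local background), the -log10 p and -log10 q and the score (10 times the -log10 q) are the values deposited by the authors, per library and down to a q of 0.01.

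Entries on chromosomes 1 to 22 and X were kept, overlapping entries of a list were merged, and peaks of different lists that overlapped by 1 bp were joined into regions. Pileup and background were solved from fold and p under a Poisson model. In each list, at least 99.95% of entries gave a pileup whole to within 0.02. Lowest backgrounds were 1.22 to 1.37 reads. Fold and pileup were divided by their medians over the regions called in all libraries. A ratio past 1.5-fold is called. Intervals are exact 95% Poisson or conditional binomial intervals. Python 3.11.15, pandas 2.3.3, NumPy 2.4.6 and SciPy 1.17.1 were used, and the scripts were tested on simulated data.

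The genes, the measures and the comparisons were chosen with earlier results of these data known, and all 9 genes are named. The measures by side of the start, and the choice of promoters to print, were made after the values were seen. Strands and promoters come from RefSeq on GRCh38.p14, with no coordinates moved between builds. No hg19 annotation was used, so other genes' starts, cell type markers and SLFN11 were not analysed here.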

Additional observations from a re-analysis of the deposited data

Results flagged for a closer look

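With all deposited peaks, the DUSP1 width ratios had opposite signs in the 2 genotypes, past 1.5-fold in each. The log2 ratio was 2.05 for WT4 against WT and -0.95 for KO_4 against KO, a difference of 3.01. The difference was not tested, since each value comes from 1 library. The knockout call and its sign were lost, at 0.059, both with a -log10 q of at least 5 and with lists of equal length. Over all regions called in every library, the median of the same difference was 0.68. For IER5 the difference was larger, at 3.05 (2.50 and -0.55), with the knockout ratio short of 1.5-fold. The ratios of EGR2 and KLF10 also had opposite signs in the 2 genotypes.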

How the results depend on the processing

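Placement of the libraries decided the treatment readings. By recorded sample, the median log2 width ratio against DMSO was -0.025 at 2 h and -1.27 at 4 h in the parent, with 0 and 0 genes called wider and 0 and 0 regions added. Relative fold at 4 h was then 0.43. In the knockout, 1 gene at 2 h and 1 at 4 h were called wider, and 1 and 0 regions were added. Knockout against parent, the recorded width medians were -0.31 for DMSO and 0.65 for 4 h, with relative fold at 0.46 and -0.062, 0 and 5 genes wider and 0 and 1 regions added.

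With the lists as placed by the title codes, the parent width medians stayed between 1.03 and 1.36 under the other alternatives. These alternatives keep or drop called peaks and recompute no peak edge from reads. They therefore cannot show how far the widths depend on depth, which was not tested. Pileup in place of fold gave medians of 0.17 and 0.30 in the parent at 2 h and 4 h, and -0.092 and -0.33 for knockout against parent at 2 h and 4 h. Genes called higher in the knockout than in the parent then went from 3 to 0 at 2 h and from 1 to 0 at 4 h. It also turned single genes, with IER5 at 0.16 in WT4 against WT and IER2 at -0.11 and -0.36 in KO_2 against WT2 and KO_4 against WT4. With a -log10 q of at least 5, 7 genes kept a region called in all libraries, while the 9 genes still had 14 regions. Of these regions, 7 at 2 h and 7 at 4 h were added in the parent. In the knockout 1 was added at 4 h, and 2 were added for knockout against parent with DMSO. Genes called wider were then 1 in the knockout at 2 h and 3 for knockout against parent with DMSO, and DUSP1 in KO_4 against KO was at 0.059. Lists of equal length gave 2 regions added in the parent at 2 h, 1 in the knockout at 4 h and 0 for knockout against parent with DMSO. They gave 1, 1 and 3 genes wider in the knockout at 2 h, at 4 h and against the parent with DMSO, and 0.059 for DUSP1. Peaks sharing 50% of the shorter gave 1 gene wider in the knockout at 2 h and 1 at 4 h. Within 1 kb, 7 genes kept a region called in all libraries, EGR3 and IER2 being lost, and the set held 10 regions. Of these regions, 1 and 0 were added in the knockout at 2 h and 4 h. Genes called lower by relative fold in the parent then went from 1 to 0 at 2 h and from 2 to 1 at 4 h. The causes were not tested. No paired analysis was possible because each group holds 1 library. Depth limits the summit heights, at 15 to 36 reads for the 9 genes in WT.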
